A study of Mus musculus with 144 samples.

Results

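The effect of the ob/ob genotype was compared between podocytes and mesangial cells, with the contrast of interest being the difference of the 2 effects (ob/ob minus WT in podocytes, minus ob/ob minus WT in mesangial cells, on the log2 scale and averaged over 6, 12 and 18 weeks of age). The emphasis lies on genes that were well expressed in both cell types, here a mean of 5 or more TPM (a level corrected for transcript length and scaled to a common sum) in each, and that went in opposite directions. All 92 podocyte and mesangial libraries among the 144 libraries of the series were used, and 463 of 19347 tested genes (2.39%) met the rule. A gene met it when the difference and the effect in each cell type all had an adjusted p under 0.05 (edgeR quasi-likelihood test, Benjamini-Hochberg adjustment over all tested genes) and both effects had opposite signs.

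The diabetic mice were BTBR.Cg-Lep ob/ob WiscJ animals, in which leptin is not functional and obesity with high blood glucose develops, and their controls were BTBR +/+ (WT) animals. Both genotypes carried the Gt(ROSA)26Sor tm4 reporter, in which Cre switches ACTB-driven tdTomato to EGFP, and a Cre transgene that is active in podocytes, so that podocytes are green and other cells red. Females and males were taken at 6, 12 and 18 weeks, with 8 libraries of each cell type and genotype at 6 and 12 weeks and 7 at 18 weeks, or 23 per cell type and genotype. Glomeruli were collected with magnetic beads, digested enzymatically at a warm temperature and sorted by flow cytometry, podocytes as EGFP-positive cells and mesangial cells as CD73-positive cells without podocalyxin or EGFP. Glomerular endothelial cells (gECs) were sorted from the same kind of preparation and their 46 libraries served only to set the 2 effects beside those of another glomerular cell type.

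Podocytes are post-mitotic epithelial cells whose foot processes and slit diaphragms cover the outside of the glomerular capillary. Mesangial cells are contractile, matrix-producing pericytes that lie between the capillaries and hold the tuft together. In diabetic kidneys podocytes are known for flattening and loss, and mesangial cells for growth and matrix accumulation.

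The libraries held 14.8 to 38.1 M counts (M, mega). Libraries of 6-week and 12-week mice had medians of 28.4 M and 30.7 M, and those of 18-week mice one of 17.2 M, and no label separates age from the time of sequencing. Lep itself was listed at 0 TPM in 91 of the 92 libraries, so this gene does not test the labels here. The labelled cell types carried their markers. Nphs1, which encodes the slit diaphragm protein nephrin, averaged 1664 ± 301 TPM in ob/ob podocytes and 1778 ± 211 TPM in WT podocytes (SD, n = 23 each), and mesangial means were at most 0.207% of the podocyte means of the same genotype. Gata3, a transcription factor of mesangial cells, averaged 524 ± 74.2 TPM in ob/ob and 681 ± 74.4 TPM in WT mesangial cells (SD, n = 23 each), and podocyte means were at most 0.34% of these. The residual podocyte RNA in mesangial libraries was lower in ob/ob (Nphs1 at 0.1% of the podocyte level) than in WT (0.207%), and endothelial Pecam1 stood at 0.628% of the gEC level in ob/ob and 0.567% in WT mesangial libraries. Among the 463 genes the lowest mesangial mean relative to the podocyte mean was 2.59% (Epb4.1l5). The lowest podocyte mean relative to the mesangial mean was 1.02% (Des, itself a mesangial marker). Pdgfrb, a further mesangial marker, was found in podocytes at 0.387% of its mesangial level in ob/ob and 0.533% in WT. For 19 of the 463 genes the gEC level was over 10 times the lower of the podocyte and mesangial levels. The summed TPM of 12 mesangial markers was lower in ob/ob mesangial libraries (8019 to 12348, median 9983) than in WT ones (11374 to 15853, median 14504), and 6 of them were called lower in mesangial cells. Most of the fall of the sum came from Sfrp2 (means of 1916 TPM in ob/ob and 4664 TPM in WT) and Ptn (1482 and 2256 TPM). Means were also lower in ob/ob for Pdgfrb (885 and 1215 TPM), Des (540 and 674 TPM), Art3 (416.5 and 496 TPM) and Nt5e (309 and 379 TPM). Nt5e encodes CD73, by which these cells were sorted, and the part of the sorting in these values was not tested. Itga8 (2341 and 2415 TPM), Adamts5 (712 and 767 TPM), Agtr1a (607 and 634 TPM) and Cspg4 (132 and 125 TPM) differed little. Of 14 podocyte markers, 5 were lower in ob/ob podocytes, and in ob/ob mesangial cells 9 were lower and 3 higher. Over all tested genes 9.36% were lower in podocytes, and 17.5% were lower and 17.9% higher in mesangial cells. The summed TPM of 12 gEC markers was 1806 to 2605.6 in ob/ob mesangial cells (median 2252), against 1331 to 2000 in WT mesangial cells (median 1746), and 985 to 1331 in ob/ob podocytes (median 1098), against 1232 to 1658 in WT podocytes (median 1429). In podocytes nearly all of this sum was Plat, with means of 1085 TPM in ob/ob and 1403 TPM in WT, while Pecam1 averaged 1.38 and 1.33 TPM. In mesangial cells Eng averaged 1216 TPM in ob/ob and 864 TPM in WT, Ehd3 429 and 340 TPM, and Pecam1 8.24 and 6.53 TPM. The part of RNA from other cell types in the results was not tested. Since bulk libraries were sequenced, fewer cells of a subtype and less RNA per cell cannot be told apart. The mitochondrial share of counts was higher in ob/ob podocytes (median 10.0%) than in WT podocytes (7.68%), against 7.89% in ob/ob and 8.20% in WT mesangial cells. Results were also computed without 5 libraries taken to stand apart. The mesangial libraries of ob/ob female 2 at 6 weeks and WT male 1 at 12 weeks and the podocyte library of WT male 1 at 12 weeks had the highest scores on the first principal component of the residuals (34.1, 44.7 and 26.1), although the next library was close to the last (25.3), and both libraries of ob/ob male 1 at 18 weeks were doubted from earlier results of these data only.

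The ob/ob effect differed between podocytes and mesangial cells for 4429 genes (22.9% of those tested), with 2332 (12.1%) higher in podocytes than in mesangial cells and 2097 (10.8%) lower. The podocyte effect by itself was called for 4332 genes (22.4%), of which 1810 (9.36%) were lower, and the mesangial effect for 6850 (35.4%), of which 3379 (17.5%) were lower. Of the 9001 genes expressed in both cell types, 2879 (32.0%) had a called difference, and 1756 of these had fitted effects of opposite sign. The 463 genes with all 3 calls were 5.14% of the 9001. They split into 211 genes (2.34%) that rose in ob/ob podocytes and fell in ob/ob mesangial cells, and 252 (2.80%) that fell in podocytes and rose in mesangial cells. This split follows the scaling: on log2(TPM + 1) of the deposited TPM it was 112 to 413, and in 1 fit with the gECs 232 to 155. Without the 5 libraries taken to stand apart, 2495 differences were called positive and 2195 negative, and 428 of the 463 genes kept all 3 calls. Most of the opposite effects were small, with a median absolute difference of 0.45 on the log2 scale, 381 of 463 genes under 1.5-fold in both cell types, and 64 with a difference of 2-fold or more. At the expression limit the genes just inside had a lower mean TPM of 5.00 (Gm7666) and 5.08 (Mtbp), and those just outside 4.93 (Fzd4) and 4.76 (Nbea), and 213 further genes had the same 3 calls at lower levels.

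**Figure D1:**
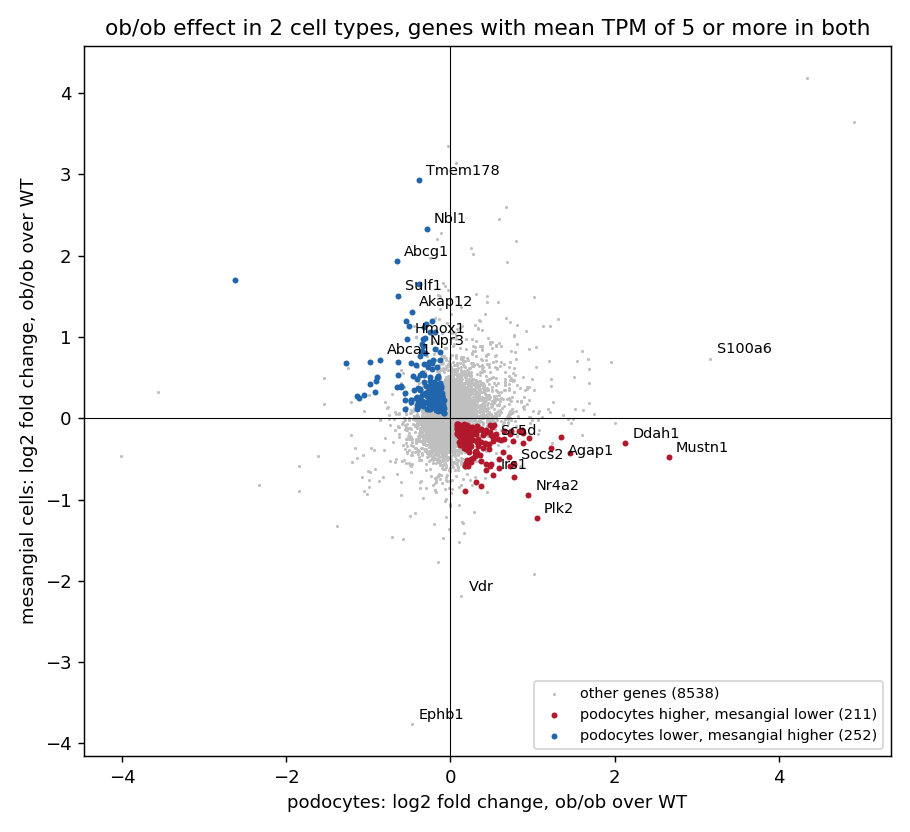
The ob/ob effect in podocytes (x axis) and in mesangial cells (y axis), both as log2 fold changes of ob/ob over WT averaged over the ages, for the 9001 genes expressed in both cell types. Red points are the 211 genes higher in ob/ob podocytes and lower in ob/ob mesangial cells, blue points the 252 in the reverse direction and grey points the other 8538. Blue genes extend mainly upwards, to 2.93 for Tmem178 in mesangial cells, while Mustn1 and Ddah1 extend to the right.

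Several genes of sterol synthesis rose in podocytes and fell in mesangial cells, and 2 exporters of cellular cholesterol went the other way. Cholesterol is made in the endoplasmic reticulum under the control of the SREBP2 transcription factor, which is active when membranes are poor in sterol. Sterol excess activates LXR receptors, which induce the exporters Abca1 and Abcg1. Of the 24 tested members of the cholesterol synthesis list, 13 had a called positive difference (podocyte minus mesangial effect) and 2 a negative one, with a median difference of 0.35, against 12.1% and 10.8% of all genes and a median of 0.03. In podocytes 10 members rose and 1 fell, and in mesangial cells 3 rose and 12 fell. Of all tested genes, 13.0% rose and 9.36% fell in podocytes, and 17.9% rose and 17.5% fell in mesangial cells. Under deposited TPM the median difference was 0.14.

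Of these, 4 genes met the rule: Hmgcs1 (the synthase that starts the mevalonate pathway), Idi1 (isopentenyl diphosphate isomerase), Msmo1 (sterol C4-methyl oxidase) and Sc5d (sterol C5-desaturase). Sc5d (GRCm38 chr9:42251595-42264256, minus strand) had 13.9 to 22.2 TPM in ob/ob podocytes (median 18.5), against 9.15 to 19.3 TPM in WT podocytes (median 13.5). In mesangial cells it had 2.75 to 7.43 TPM in ob/ob (median 5.01), against 3.59 to 10.2 TPM in WT (median 6.47). All 23 ob/ob podocyte libraries lay above the WT median of their age and 19 of 23 ob/ob mesangial libraries below it, although the ranges overlapped in both cell types. The fitted log2 fold changes of Sc5d were 0.52 ± 0.07 in podocytes and -0.28 ± 0.08 in mesangial cells, a difference of 0.80 ± 0.11 (adjusted p = 3.75e-09, edgeR).

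Msmo1 was less clear in podocytes than in mesangial cells. It had 10.7 to 23.5 TPM in ob/ob podocytes (median 18.1), against 10.4 to 26.0 TPM in WT podocytes (median 16.3), and 6.65 to 17.7 TPM in ob/ob mesangial cells (median 9.84), against 9.51 to 27.0 TPM in WT (median 15.0). Its difference was 0.65 ± 0.09 (adjusted p = 4.55e-09, edgeR), from 0.23 ± 0.06 in podocytes and -0.42 ± 0.06 in mesangial cells. Hmgcs1 had 15.2 to 25.6 TPM in ob/ob podocytes (median 19.4), against 15.5 to 25.0 TPM in WT podocytes (median 18.5), and 26.8 to 40.1 TPM in ob/ob mesangial cells (median 31.6), against 31.3 to 47.9 TPM in WT (median 37.4). The Hmgcs1 effects, 0.16 ± 0.05 and -0.16 ± 0.05, were of equal size and opposite sign, and the Idi1 effects were 0.28 ± 0.09 and -0.27 ± 0.09. On deposited TPM the podocyte effects of Msmo1 (0.09), Hmgcs1 (0.06) and Idi1 (0.27) were no longer called (limma, adjusted p = 0.406, 0.333 and 0.0541), and the Idi1 difference missed the threshold (adjusted p = 0.0567), so that Sc5d alone of the 4 kept both calls there.

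Further sterol genes had opposite calls at levels under 5 TPM in 1 cell type or both. Sqle (squalene epoxidase) had 0.41 ± 0.09 and -0.59 ± 0.09, and Cyp51 (lanosterol demethylase) had 0.29 ± 0.07 and -0.52 ± 0.07. Insig1, which retains the SREBP complex in the endoplasmic reticulum, fell in mesangial cells (-0.71 ± 0.10) and was at 0.07 ± 0.10 in podocytes, and Srebf2, which encodes SREBP2, was at 0.07 in podocytes and fell by 0.38 in mesangial cells. Lss and Ebp, which act between squalene and the later sterols, rose by 0.17 and 0.20 in mesangial cells and gave the 2 negative differences of the list.

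**Figure D2:**
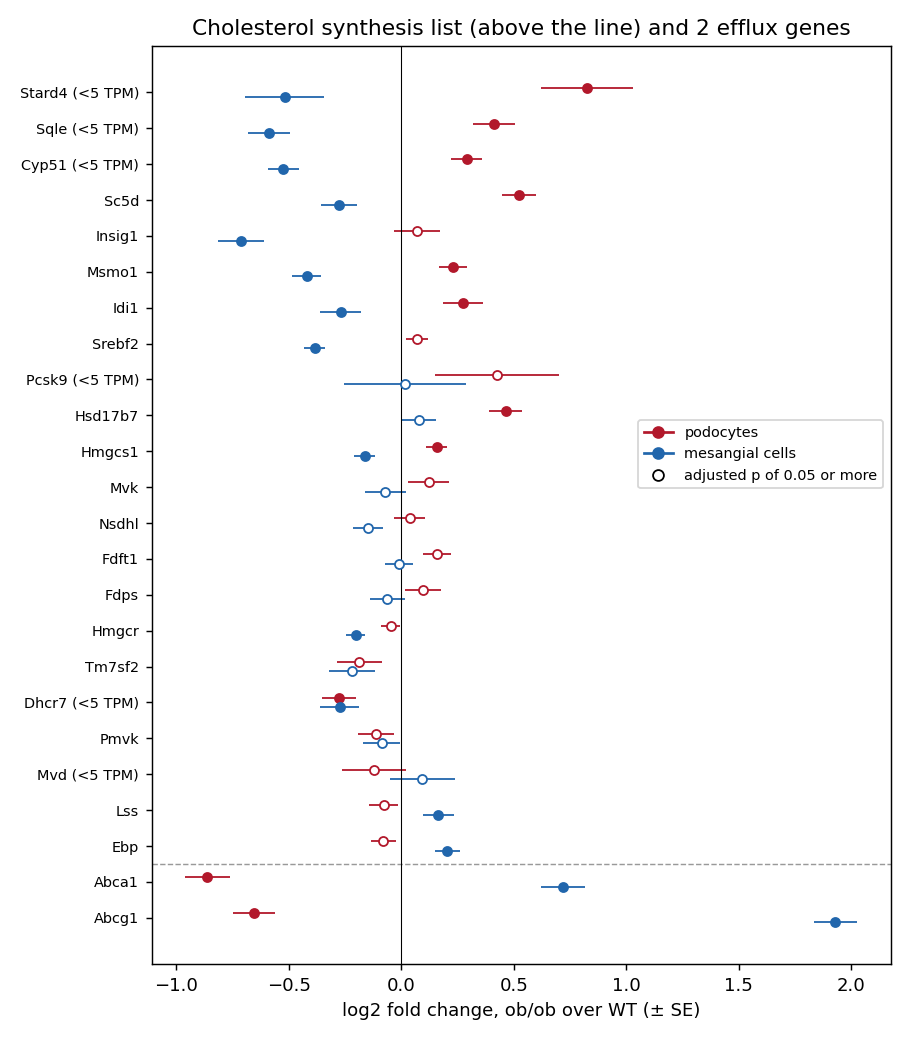
Log2 fold changes of ob/ob over WT (x axis, points with SE bars) in podocytes (red) and mesangial cells (blue) for 22 of the 24 tested members of the cholesterol synthesis list, ordered by their difference, and for Abca1 and Abcg1 below the dashed line. Open points had an adjusted p of 0.05 or more. The red points lie to the right of the blue ones for Sqle and Sc5d, and to the left for Abca1 and Abcg1.

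Abcg1 (chr17:31057675-31117988, plus strand), the transporter that passes cholesterol to high-density lipoprotein, had one of the clearest opposite patterns. It had 6.32 to 16.3 TPM in ob/ob podocytes (median 8.56), against 9.15 to 26.0 TPM in WT podocytes (median 16.1), and 10.5 to 34.2 TPM in ob/ob mesangial cells (median 24.2), against 3.08 to 10.0 TPM in WT mesangial cells (median 7.23). All 46 mesangial libraries were separated by genotype, as was the case for 79 of 19347 tested genes (0.408%), and all 23 ob/ob podocyte libraries lay below the WT median of their age. The effects were -0.66 ± 0.09 in podocytes and 1.93 ± 0.10 in mesangial cells, and the difference was -2.59 ± 0.13 (adjusted p = 2.03e-29, edgeR).

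Abca1 (chr4:53030787-53159895, minus strand), which loads cholesterol and phospholipid onto apolipoprotein A-I, behaved alike. It had 4.58 to 17.9 TPM in ob/ob podocytes (median 7.22), against 6.61 to 24.5 TPM in WT podocytes (median 15.6), and 6.45 to 29.9 TPM in ob/ob mesangial cells (median 14.6), against 5.56 to 14.2 TPM in WT (median 9.54). The groups overlapped, but all 23 ob/ob podocyte libraries were below and 19 of 23 ob/ob mesangial libraries above the WT median of their age. The difference was -1.58 ± 0.14 (adjusted p = 1.59e-16, edgeR), from -0.86 ± 0.10 and 0.72 ± 0.10. In gECs Abca1 rose by 0.29 (adjusted p = 0.00929) and Abcg1 was at 0.13 (adjusted p = 0.122).

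Other LXR targets were listed after these values were seen. Of 10 LXR genes, 7 had a called negative difference and 1 a positive one, against 10.8% and 12.1% of all tested genes. Only 6 of the 10 reached 5 TPM in both cell types. The 7 include Abca1 and Abcg1, which prompted the list, and of the other 8 genes 5 had a negative difference and 1 a positive one. Lpcat3, a phospholipid-remodelling acyltransferase, was at -0.09 in podocytes and rose by 0.31 in mesangial cells, Mylip, an LXR-induced ubiquitin ligase, fell by 0.52 in podocytes and was at -0.12 in mesangial cells, and Srebf1 rose in both (0.13 and 0.34). Scd1, a desaturase induced by both LXR and SREBP1, had the reverse pattern, with 1.49 in podocytes and -0.54 in mesangial cells at a mean of 4.37 and 4.55 TPM. Apoe, a further target, was at 0.19 and 0.22 and passed the test in neither cell type.

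The promoters of 3 of these genes are shown because each matched a short motif that was searched for. The 250 bases before the annotated start were taken from RefSeq (GRCm38.p6) and searched on both strands. Capitals mark CACCCCAC, the core letters of a sterol regulatory element, in Hmgcs1 and the E-box CACGTG in Sc5d and Abca1. The E-box letters are not those of the LXR element.
Hmgcs1, chr13:119690101-119690350, plus strand: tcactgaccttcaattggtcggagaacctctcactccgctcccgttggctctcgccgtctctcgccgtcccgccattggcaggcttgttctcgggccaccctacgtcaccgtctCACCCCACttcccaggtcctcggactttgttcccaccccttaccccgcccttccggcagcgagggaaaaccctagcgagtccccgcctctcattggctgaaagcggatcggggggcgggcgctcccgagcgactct
Sc5d, chr9:42264301-42264550, minus strand: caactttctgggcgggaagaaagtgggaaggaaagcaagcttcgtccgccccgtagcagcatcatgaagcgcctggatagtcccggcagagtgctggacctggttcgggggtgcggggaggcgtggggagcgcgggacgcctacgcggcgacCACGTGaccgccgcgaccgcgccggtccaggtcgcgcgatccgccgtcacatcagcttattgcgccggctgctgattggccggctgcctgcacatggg
Abca1, chr4:53159896-53160145, minus strand: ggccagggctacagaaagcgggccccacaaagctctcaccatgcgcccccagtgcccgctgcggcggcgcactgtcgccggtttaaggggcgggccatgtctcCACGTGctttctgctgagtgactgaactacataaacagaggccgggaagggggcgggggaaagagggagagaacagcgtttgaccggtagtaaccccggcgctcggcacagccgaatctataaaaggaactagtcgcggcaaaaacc
The match in Hmgcs1 begins 136 bases before the start, that in Sc5d 98 and that in Abca1 147. CACCCCAC occurred in 2.58% and CACGTG in 6.02% of 32851 promoter entries of the same length. Among the 329 opposite genes with an entry, CACCCCAC was found in 8 of 148 that rose in podocytes and 11 of 181 that fell, and CACGTG in 17 of 148 and 10 of 181. A gene counted when any of its entries matched, so these counts are not directly comparable with the shares per entry. The LXR element, a direct repeat of AGGTCA with a spacer of 4 bases, was found in 5 of all entries and in none of the 329 genes. These matches are descriptions of letters and not of bound sites, and Abcg1, Idi1 and Msmo1 are not shown.

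Genes that relay insulin and growth hormone diverged as well. Insulin receptor substrates carry the signal of the insulin and IGF1 receptors to PI3 kinase, and SOCS2 is the feedback inhibitor of growth hormone signalling. Irs1 (chr1:82233101-82291416, minus strand) had 14.6 to 37.9 TPM in ob/ob podocytes (median 28.2), against 16.8 to 31.1 TPM in WT podocytes (median 19.1), and 17.6 to 38.6 TPM in ob/ob mesangial cells (median 28.3), against 30.6 to 67.2 TPM in WT (median 46.3). A total of 22 of 23 ob/ob podocyte libraries were above and all 23 ob/ob mesangial libraries below the WT median of their age. The Irs1 difference was 1.22 ± 0.11 (adjusted p = 9.77e-17, edgeR), from 0.52 ± 0.07 and -0.69 ± 0.07.

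Socs2 (chr10:95385362-95417180, minus strand) had 5.29 to 22.9 TPM in ob/ob podocytes (median 15.4), against 4.25 to 22.0 TPM in WT podocytes (median 8.34), and 4.22 to 13.5 TPM in ob/ob mesangial cells (median 8.32), against 5.82 to 23.4 TPM in WT (median 12.5). The ranges overlapped, with 19 of 23 ob/ob podocyte libraries above and all 23 ob/ob mesangial libraries below the WT median of their age. The difference of 1.35 ± 0.16 (adjusted p = 4.55e-11, edgeR) came from 0.78 ± 0.11 and -0.57 ± 0.11. Over the 23 tested members of the insulin and growth hormone list, 5 differences were called positive and 7 negative, against 12.1% and 10.8% of all tested genes. The median difference was 0.05 and turned negative on deposited TPM. The receptors behaved unlike Irs1 and Socs2. Ghr, the growth hormone receptor, was at -0.11 ± 0.06 in podocytes and rose by 0.74 ± 0.06 in mesangial cells, Igf1r rose in both (0.11 and 0.44), Insr was at -0.05 and rose by 0.18, and the second substrate Irs2 was at -0.08 and rose by 0.46. Foxo1, a transcription factor that insulin restrains, fell in both (-0.14 in podocytes and -0.67 in mesangial cells).

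**Figure D3:**
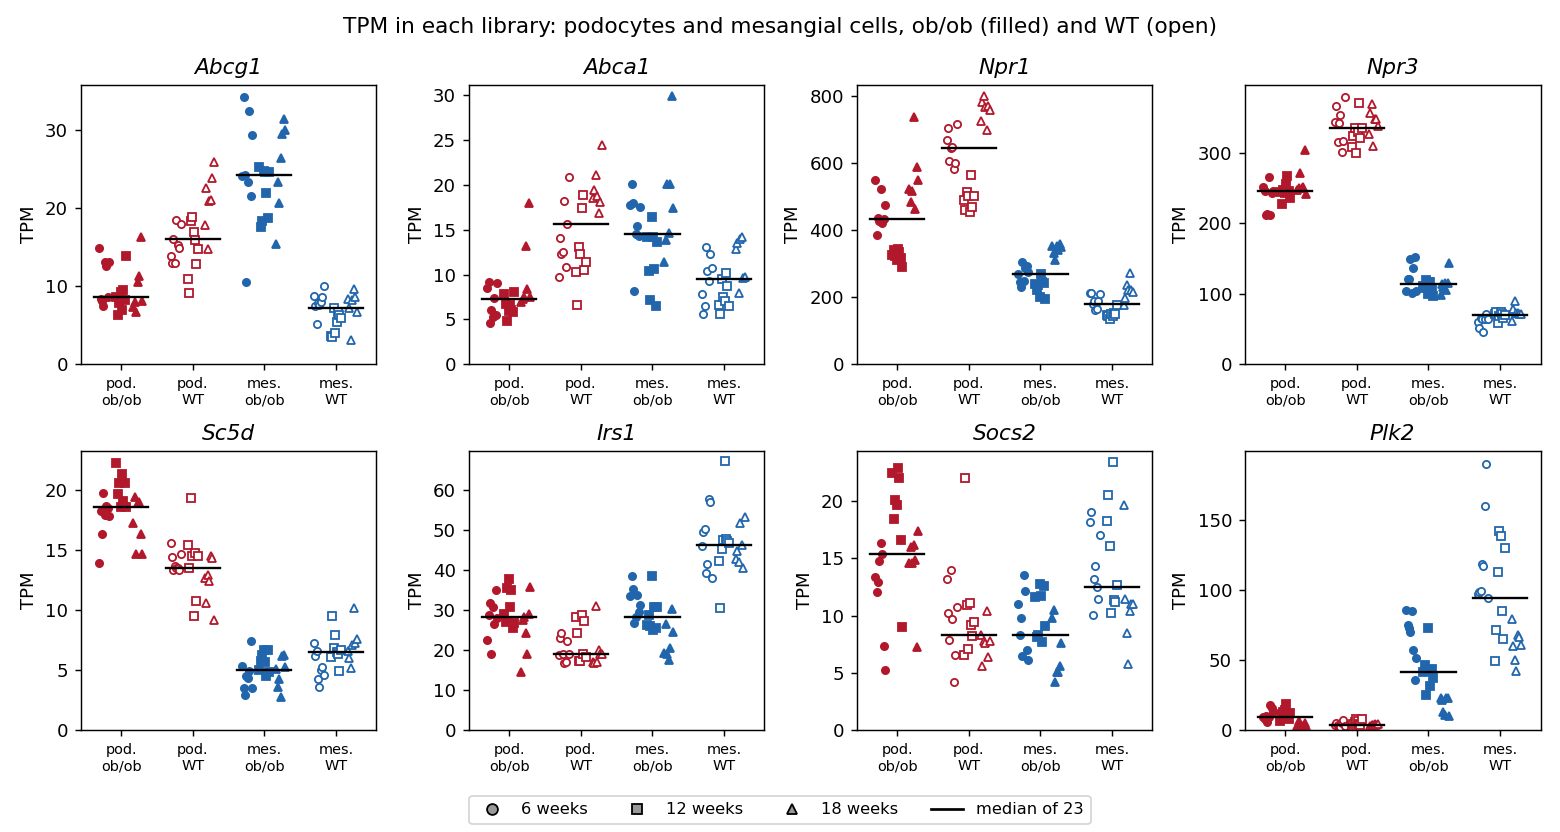
TPM of 8 opposite genes in each of the 92 libraries (y axis, linear, from 0), in the order ob/ob podocytes, WT podocytes, ob/ob mesangial cells and WT mesangial cells, with circles, squares and triangles for 6, 12 and 18 weeks, filled points for ob/ob and a line at the median of 23. The mesangial libraries of Abcg1 and Npr3 do not overlap between genotypes, while those of Abca1, Sc5d and Socs2 do.

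Some immediate early and activity-regulated genes rose in podocytes and fell in mesangial cells. These genes respond within minutes to growth factors, calcium and cyclic AMP, and also to enzymatic digestion of tissue. Plk2 (chr13:110395046-110400844, plus strand), a polo-like kinase induced by such signals, had 2.34 to 18.6 TPM in ob/ob podocytes (median 9.37), against 1.42 to 8.10 TPM in WT podocytes (median 3.80). In mesangial cells it had 10.4 to 85.3 TPM in ob/ob (median 41.7), against 42.4 to 189 TPM in WT (median 94.0). All 23 ob/ob mesangial libraries lay below the WT median of their age and 19 of 23 ob/ob podocyte libraries above it. The difference was 2.28 ± 0.20 (adjusted p = 7.72e-17, edgeR), from 1.05 ± 0.15 and -1.23 ± 0.13. The podocyte level of Plk2 was 0.61% of its gEC level, where Plk2 fell by 0.35. Endothelial Pecam1 stood at 0.105% of the gEC level in ob/ob and 0.115% in WT podocytes, and Cdh5 at 0.0426% and 0.0379%. Ehd3, a further gEC marker, averaged 12.6 TPM in ob/ob podocytes and 1277 TPM in ob/ob gECs. The part of endothelial RNA in the podocyte values of Plk2 was not tested.

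Nr4a2, an orphan nuclear receptor, had 1.96 to 21.4 TPM in ob/ob podocytes (median 6.56), against 2.37 to 15.2 TPM in WT podocytes (median 5.08), and 3.77 to 185 TPM in ob/ob mesangial cells (median 66.7), against 46.6 to 566 TPM in WT (median 69.5). Over the 23 libraries the mesangial medians were close. By age they were 71.6 TPM in ob/ob and 78.1 TPM in WT at 6 weeks, 72.7 and 101 TPM at 12 weeks, and 12.8 and 60.7 TPM at 18 weeks. The groups of 7 libraries at 18 weeks did not overlap, but the share of all genes so separated at a single age was not counted. The difference was 1.90 ± 0.28 (adjusted p = 7.02e-08, edgeR), and on deposited TPM the podocyte effect was 0.43 and not called (limma, adjusted p = 0.101). Fosl2, an AP-1 subunit, had effects of 0.59 ± 0.15 and -0.50 ± 0.15 with wide overlap (54.1 to 298 TPM in ob/ob and 31.0 to 213 TPM in WT podocytes). Of the 25 immediate early genes 7 had a positive and 2 a negative difference, against 12.1% and 10.8% of all tested genes. Nr4a1, Nr4a3, Klf2, Klf4 and Fosb fell in mesangial cells (by 0.50, 0.55, 0.33, 0.39 and 0.63) and were not called in podocytes, so the opposite sign held for Nr4a2 and Fosl2 of this list and not for the list as a whole, in which 11 members fell in podocytes and 15 in mesangial cells. Of all tested genes, 9.36% fell in podocytes and 17.5% in mesangial cells. The digestion of the glomeruli at a warm temperature was common to all groups, and its part in these values was not tested.

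Plk2 and Nr4a2 are shown with the letters that cyclic AMP response elements carry (TGACGTCA in Plk2 and its leading 5 letters TGACG, read on either strand, in Nr4a2).
Plk2, chr13:110394794-110395043, plus strand: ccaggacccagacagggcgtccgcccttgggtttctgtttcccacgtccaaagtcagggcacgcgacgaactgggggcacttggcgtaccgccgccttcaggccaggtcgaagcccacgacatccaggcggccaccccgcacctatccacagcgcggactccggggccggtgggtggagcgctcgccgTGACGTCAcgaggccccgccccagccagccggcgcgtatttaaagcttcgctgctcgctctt
Nr4a2, chr2:57124004-57124253, minus strand: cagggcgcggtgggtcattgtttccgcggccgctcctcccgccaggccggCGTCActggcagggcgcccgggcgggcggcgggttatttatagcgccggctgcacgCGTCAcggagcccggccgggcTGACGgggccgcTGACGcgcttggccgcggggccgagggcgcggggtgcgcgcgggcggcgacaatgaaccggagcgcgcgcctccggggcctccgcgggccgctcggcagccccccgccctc
The Plk2 match begins 62 bases before the start, and Nr4a2 has 4 matches, the first 200 bases before it. TGACGTCA occurred in 1.55% of all promoter entries and in 3 of 148 opposite genes that rose in podocytes and 3 of 181 that fell. TGACG, which TGACGTCA contains, occurred in 17.8% of entries and in 47 of 148 and 55 of 181. Here too a gene counted when any of its entries matched, whereas the percentages are per entry, so the 2 are not directly comparable.

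Genes that end or anchor the cyclic AMP signal were among the genes that went the other way. Phosphodiesterases break down cyclic AMP, AKAP12 anchors protein kinase A, and Crem encodes both activators and repressors of its transcriptional response. Pde4b had 119.6 to 236 TPM in ob/ob podocytes (median 163), against 145 to 289 TPM in WT podocytes (median 222), and 14.5 to 58.9 TPM in ob/ob mesangial cells (median 31.4), against 8.85 to 38.2 TPM in WT (median 13.8). The Pde4b difference was -1.45 ± 0.16 (adjusted p = 1.37e-12, edgeR). Akap12 (chr10:4266380-4359470, plus strand) had 15.1 to 30.8 TPM in ob/ob podocytes (median 25.9), against 26.0 to 50.3 TPM in WT podocytes (median 39.1), and 249 to 633 TPM in ob/ob mesangial cells (median 286), against 73.3 to 383 TPM in WT (median 130.4). All 23 ob/ob libraries were on the low side of the WT median of their age in podocytes and on the high side in mesangial cells, and the difference was -1.78 ± 0.12 (adjusted p = 6.12e-22, edgeR). In a list of 15 such genes drawn up after these values were seen, 5 were opposite (2.39% of all tested genes), among them Pde4b and Akap12, which prompted the list. Pde4c (-0.64 in podocytes and 0.53 in mesangial cells) and Pde3a (-0.33 and 0.15) went with Pde4b and Akap12, and Crem (0.36 and -0.45) went against them.

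Of 3 receptors of natriuretic peptides, Npr1 and Npr3 fell in podocytes and rose in mesangial cells, and Npr2 rose in both. Npr1 encodes the guanylyl cyclase that answers atrial natriuretic peptide with cyclic GMP, and Npr3 the clearance receptor that removes the peptide. Npr3 (chr15:11839896-11907287, minus strand) had 212 to 305 TPM in ob/ob podocytes (median 247), against 300.0 to 380.2 TPM in WT podocytes (median 336), and 97.5 to 153 TPM in ob/ob mesangial cells (median 113), against 46.4 to 89.2 TPM in WT (median 70.5). The mesangial libraries did not overlap and the podocyte ranges overlapped only at their ends. The difference was -1.18 ± 0.06 (adjusted p = 7e-28, edgeR), from -0.34 ± 0.05 and 0.83 ± 0.05, and the podocyte call was lost in 1 fit with the gECs (adjusted p = 0.111). Npr1 (chr3:90450591-90465866, minus strand) had 291 to 735 TPM in ob/ob podocytes (median 434), against 453 to 799 TPM in WT podocytes (median 645), and 194 to 358 TPM in ob/ob mesangial cells (median 269.8), against 135 to 270.9 TPM in WT (median 181). Npr1 varied with age in both genotypes, and within each age all ob/ob libraries lay below the WT median in podocytes and above it in mesangial cells. Its difference was -1.07 ± 0.06 (adjusted p = 2.75e-28, edgeR). Prkg1, the kinase that cyclic GMP activates, had small effects in the reverse direction (0.11 ± 0.03 and -0.11 ± 0.03). Npr2, the receptor of C-type natriuretic peptide, had 0.33 and 0.38, and the soluble guanylyl cyclase subunits Gucy1a3 and Gucy1b3 fell in mesangial cells (by 0.50 and 0.27) at podocyte levels of 1.20 and 0.502 TPM. These genes were also listed after their values were seen. Of 9 tested members 1 had a positive and 2 a negative difference, against 12.1% and 10.8% of all tested genes, with a median of 0.05.

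Nbl1, Bmpr1b, Sulf1 and Tmem178 were among the 12 largest differences of the genes that fell in podocytes and rose in mesangial cells. Nbl1, a secreted BMP antagonist of the DAN family (chr4:139082284-139092993, minus strand), had 30.7 to 81.3 TPM in ob/ob podocytes (median 50.2), against 53.0 to 90.2 TPM in WT podocytes (median 67.9), and 21.1 to 52.6 TPM in ob/ob mesangial cells (median 33.9), against 3.96 to 13.1 TPM in WT (median 6.86). The mesangial groups did not overlap. Its difference was -2.62 ± 0.11 (adjusted p = 2.69e-35, edgeR), from -0.29 ± 0.07 and 2.33 ± 0.08. Bmpr1b, a type I BMP receptor, had 5.05 to 20.2 TPM in ob/ob podocytes (median 10.9), against 8.60 to 19.3 TPM in WT podocytes (median 15.0), and 3.34 to 14.4 TPM in ob/ob mesangial cells (median 8.82), against 0.74 to 5.47 TPM in WT (median 2.90), with a difference of -2.04 ± 0.14. In 1 fit with the gECs the podocyte effects of Nbl1 and Bmpr1b just missed the threshold (adjusted p = 0.0585 and 0.0596, edgeR).

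Sulf1, an extracellular sulfatase that trims heparan sulfate, had 106 to 241 TPM in ob/ob podocytes (median 153), against 198 to 297 TPM in WT podocytes (median 238), and 3.23 to 25.2 TPM in ob/ob mesangial cells (median 8.29), against 1.19 to 7.15 TPM in WT (median 3.11). Its difference was -2.15 ± 0.13. Nid2, the basement membrane linker nidogen 2, had 3.43 to 10.6 TPM in ob/ob podocytes (median 6.24), against 6.10 to 10.9 TPM in WT podocytes (median 7.67), and 91.4 to 227 TPM in ob/ob mesangial cells (median 134), against 40.7 to 113 TPM in WT (median 57.1). The podocyte effects of Nid2 (-0.23) and Tmem178 (-0.39), a membrane protein of the endoplasmic reticulum, were weak and lost their call without the 5 libraries taken to stand apart (adjusted p = 0.07 and 0.0655, edgeR). Both also lost it without a filter (adjusted p = 0.0584 and 0.0547, edgeR), and Tmem178 in 1 fit with the gECs (adjusted p = 0.0935, edgeR). The mesangial rise of Tmem178 was large, with 3.58 to 27.5 TPM in ob/ob (median 13.3), against 0.56 to 3.73 TPM in WT (median 1.49), a log2 fold change of 2.93 ± 0.16. Of 18 tested basement membrane genes, 3 differences were positive and 6 negative, against 12.1% and 10.8% of all tested genes. The median was 0.04 and turned negative on deposited TPM. Col4a1 and Col4a2, the chains of the common collagen IV network, rose in both cell types and more so in podocytes (1.54 and 0.71 for Col4a1). Col18a1, which carries endostatin, was at -0.16 ± 0.08 in podocytes and rose by 2.21 ± 0.09 in mesangial cells.

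Further opposite genes with large differences were of mixed function. Agap1, an Arf GTPase-activating protein of endosomal traffic, had 39.0 to 149.8 TPM in ob/ob podocytes (median 81.6), against 28.6 to 47.9 TPM in WT podocytes (median 32.9), and 12.9 to 21.4 TPM in ob/ob mesangial cells (median 15.4), against 16.1 to 24.1 TPM in WT (median 19.8). The rise in podocytes (1.34 ± 0.06) was much larger than the fall in mesangial cells (-0.24 ± 0.06). Abat, which degrades the transmitter GABA, had 48.2 to 70.6 TPM in ob/ob podocytes (median 57.6), against 38.9 to 60.3 TPM in WT podocytes (median 50.0), and 26.6 to 57.8 TPM in ob/ob mesangial cells (median 43.8), against 58.2 to 113 TPM in WT (median 76.0), with no overlap in mesangial cells. Mgll, the lipase that breaks down the endocannabinoid 2-arachidonoylglycerol, had 53.8 to 90.1 TPM in ob/ob podocytes (median 71.5), against 82.9 to 143 TPM in WT podocytes (median 104), and 9.28 to 24.8 TPM in ob/ob mesangial cells (median 14.8), against 3.84 to 14.0 TPM in WT (median 7.57).

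Cd200, a surface glycoprotein that restrains myeloid cells, had 51.8 to 155 TPM in ob/ob podocytes (median 74.2), against 29.2 to 80.3 TPM in WT podocytes (median 45.5), and 1.81 to 10.5 TPM in ob/ob mesangial cells (median 4.14), against 2.33 to 17.2 TPM in WT (median 7.04). The mesangial level of Cd200 was 1.89% of its gEC level. Endothelial markers varied widely in this respect. Pecam1 stood at 0.628% and 0.567% of its gEC level in ob/ob and WT mesangial libraries, and Cdh5 at 0.595% and 0.481%. Emcn, in contrast, averaged 168 TPM in ob/ob mesangial cells and 2373 TPM in ob/ob gECs, and Flt1 35.9 and 602 TPM. The part of endothelial RNA in the mesangial values of Cd200 was not tested. Hspa2, a chaperone (0.73 and -0.59), Pon3, a lactonase bound to lipoproteins (0.60 and -0.62), Ldhb, the heart-type lactate dehydrogenase subunit (0.71 and -0.48), and Pitpnm2, a phosphatidylinositol transfer protein (0.96 and -0.24), rose in podocytes and fell in mesangial cells. Foxs1, a forkhead transcription factor (-0.98 and 0.69), and Hist1h1d, a linker histone (-0.54 and 1.19), went the reverse way. Mustn1 (2.66 and -0.48) and Ddah1, which degrades an inhibitor of nitric oxide synthesis (2.13 and -0.31), had larger differences, but their mesangial effects at 6 weeks were 0.33 and 0.00. Gm7666 and Gm11223 are annotated as processed pseudogenes, whose reads may be shared with their parent genes, which was not tested, and the Gm7666 difference of -4.32 had an SE of 1.04. The mesangial call of Gm11223 was lost without the 5 libraries taken to stand apart and with each cell type fitted alone (adjusted p = 0.0534 and 0.0614, edgeR).

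Among antioxidant genes, 3 fell in podocytes and rose in mesangial cells. Hmox1, which degrades heme, had 10.7 to 49.6 TPM in ob/ob podocytes (median 23.0), against 25.7 to 71.8 TPM in WT podocytes (median 34.9), and 38.1 to 162 TPM in ob/ob mesangial cells (median 85.8), against 21.2 to 93.9 TPM in WT (median 43.0). All 23 ob/ob mesangial libraries were above and 21 of 23 ob/ob podocyte libraries below the WT median of their age, and the difference was -1.51 ± 0.15 (adjusted p = 4.71e-14, edgeR). Gpx4, the peroxidase of membrane lipids, had -0.13 ± 0.04 and 0.39 ± 0.04, and Fth1, the iron-storing ferritin heavy chain, -0.18 ± 0.05 and 0.18 ± 0.05. Of the 24 NRF2 genes 2 had a positive and 11 a negative difference, against 12.1% and 10.8% of all tested genes. In this list 8 members rose in podocytes and 17 in mesangial cells, against 13.0% and 17.9% of all tested genes.

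In several other lists most of the calls came from mesangial cells, and few members had opposite signs. Over all tested genes 13.0% rose in podocytes and 17.9% in mesangial cells. The difference was called positive for 12.1% of all tested genes and negative for 10.8%. Of 24 lysosomal genes 17 had a negative difference and 1 a positive one, and 6 rose in podocytes and 20 in mesangial cells. Lamp1, a lysosomal membrane protein, was at 0.01 in podocytes and rose by 0.54 in mesangial cells, and the proteases Ctsl and Ctsd rose by 0.52 and 0.50 there. Of 22 genes of the unfolded protein response 11 had a negative and 2 a positive difference, with 5 rising in podocytes and 14 in mesangial cells, including Pdia4 (0.43) and the chaperone Hspa5 (0.25). Cytosolic ribosomal protein genes had 18 negative differences among 34, all under 0.6 on the log2 scale and with a median of -0.18, and the negative median held under each of 4 other scalings (-0.20 to -0.14). The mitochondrially encoded mRNAs lay on the positive side, with 9 of 13 rising in podocytes, 0 called in mesangial cells (edgeR, 2 at an unadjusted p under 0.05) and a median difference of 0.34, beside the higher mitochondrial share of ob/ob podocyte libraries. Nuclear genes of oxidative phosphorylation had 3 positive differences among 27. For glycolysis 5 of 18 differences were positive, with 12 members rising in podocytes and 8 in mesangial cells.

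**Figure D4:**
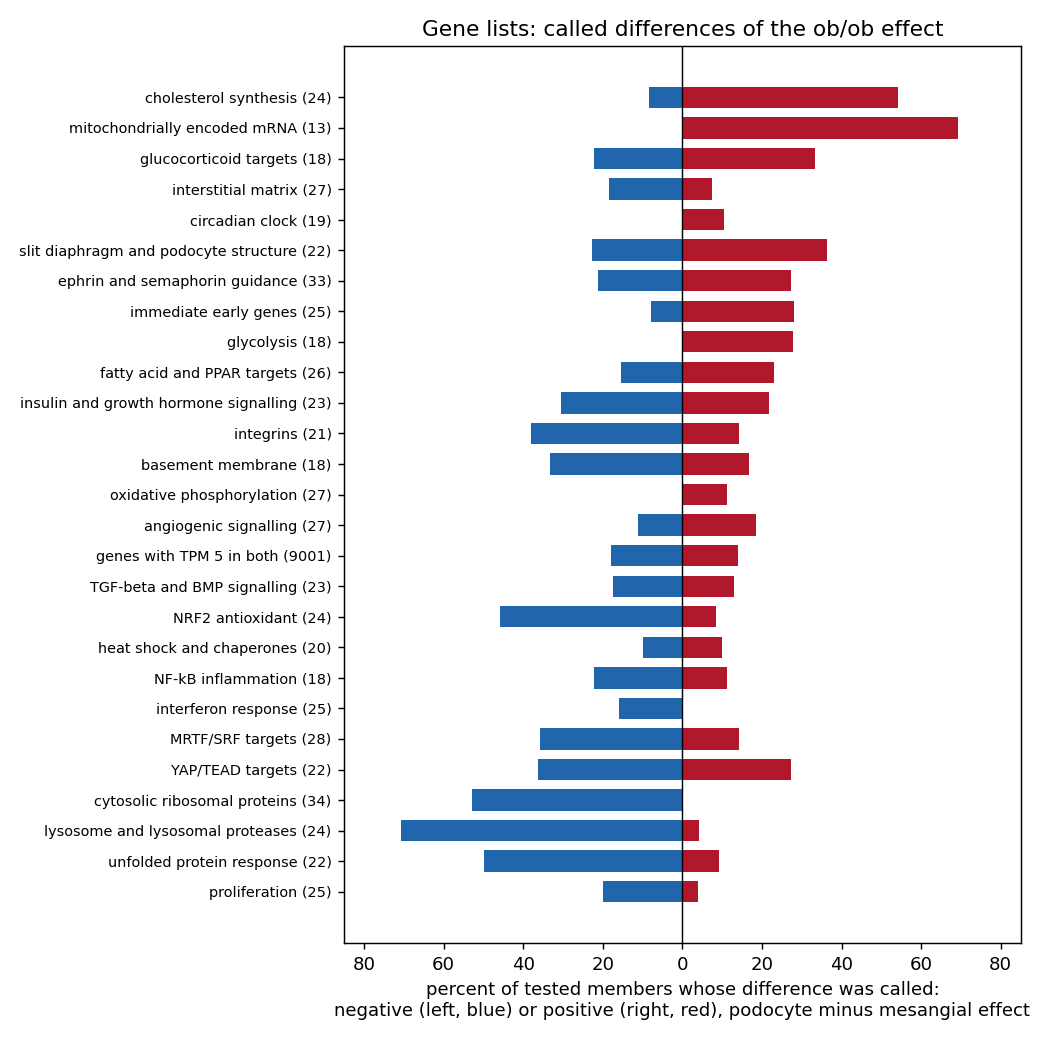
Percent of the tested members of each gene list (number in brackets) whose ob/ob effect was called higher in podocytes than in mesangial cells (red, right) or lower (blue, left), with lists ordered from the top by their median difference. Cholesterol synthesis and mitochondrially encoded mRNA lean to the right (13 of 24 and 9 of 13), and lysosome, ribosomal protein and unfolded protein response genes lean to the left (17 of 24, 18 of 34 and 11 of 22).

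Of 28 targets of the actin-regulated factors MRTF and SRF, 19 rose in podocytes and 24 in mesangial cells, with 4 positive and 10 negative differences. Tagln, a smooth muscle actin-binding protein, rose by 0.80 in podocytes and 2.18 in mesangial cells. Heat shock genes fell in both (11 of 20 in podocytes and 12 in mesangial cells, against 9.36% and 17.5% of all tested genes), with Hspa4, a chaperone of the HSP110 family, as the opposite member (0.37 and -0.13). Proliferation genes rose in podocytes for 2 of 25 members and in mesangial cells for 18, with 3 of the 25 at 5 TPM in both cell types. Positive and negative differences numbered 6 and 8 of 22 YAP targets, 2 and 5 of 27 interstitial matrix genes, 2 and 4 of 18 NF-kB genes, 6 and 4 of 26 fatty acid genes, 6 and 4 of 18 glucocorticoid targets, 3 and 4 of 23 TGF-beta and BMP genes and 5 and 3 of 27 angiogenic genes. Of 25 interferon genes 4 had a negative difference, and of 19 clock genes 2 had a positive one. Over all tested genes 12.1% had a positive and 10.8% a negative difference, and some of these counts lie near those shares. Of all tested genes, 13.0% rose in podocytes and 17.9% in mesangial cells. Only 3 of the 27 interstitial matrix genes and 6 of the 27 angiogenic genes reached 5 TPM in both cell types. Clock itself (0.12 and -0.17) and Cxcl1, a neutrophil-attracting chemokine (1.22 and -0.37), were the opposite members of the clock and NF-kB lists. The podocyte call of Clock was lost on deposited TPM (limma, adjusted p = 0.993), and the mesangial call of Cxcl1 in 5 alternatives (without the 5 libraries taken to stand apart, without a filter, with each cell type fitted alone, in 1 fit with the gECs and in DESeq2, adjusted p = 0.0582 to 0.0863).

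Among genes of cell contact and guidance, Sema3f, a secreted semaphorin, fell in podocytes (-0.63 ± 0.08) and rose in mesangial cells (0.69 ± 0.08), and Plxna1, a co-receptor of the semaphorin family, had smaller effects of the same signs (-0.20 and 0.14). Kirrel, the nephrin-binding protein Neph1, had -0.14 ± 0.04 and 0.40 ± 0.04, and Parva, an integrin-linked adaptor, -0.10 and 0.26, while Itgb5, an integrin subunit, had 0.12 and -0.18. In 1 fit with the gECs Parva, Itgb5 and Gpx4 lost the podocyte call, Plxna1 the mesangial call and Kirrel both as well as its difference (adjusted p = 0.0868, edgeR), and on deposited TPM Itgb5 and Plxna1 lost the same ones. Of 21 integrin genes 3 differences were positive and 8 negative, and of 33 ephrin and semaphorin genes 9 and 7. Of 22 genes of the slit diaphragm and podocyte structure 8 were positive and 5 negative. Over all tested genes the shares were 12.1% and 10.8%. Without regard to sign, the largest positive differences included Ephb1, an ephrin receptor that fell by 0.47 in podocytes and by 3.76 in mesangial cells, S100a6 (3.16 and 0.73) and Vdr, the vitamin D receptor, which was at 0.13 in podocytes (adjusted p = 0.41, edgeR) and fell by 2.19 in mesangial cells. The largest negative ones included Tmtc1, with 0.07 in podocytes and 3.14 in mesangial cells.

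The direction was largely kept over age. The fitted effects of the 2 cell types had opposite signs, in the same direction as the average, for 429 of the 463 genes at 6 weeks, 457 at 12 weeks and 451 at 18 weeks, and 411 kept 1 sign at all 3 ages in each cell type. These 3 estimates enter the average by which the genes were chosen. The difference was called at 6 weeks for 295 of the 463 genes (6.97% of all tested), at 12 weeks for 426 (13.3%) and at 18 weeks for 326 (8.77%), and at each of the 3 ages for 226. The change of the difference between 6 and 18 weeks, which the rule did not use, was called for 4 of them (0.212% of all tested). Nbl1 had a difference of -1.73 at 6 weeks and -3.01 at 18 weeks (adjusted p = 0.00939, edgeR) and Bmpr1b -1.20 and -2.80 (adjusted p = 0.0192). In both, the mesangial rise was smaller at 6 weeks than at 18 weeks (1.65 and 2.67 for Nbl1, 0.70 and 2.61 for Bmpr1b). Itgb5 changed by 0.55 (adjusted p = 0.0318) and Sept6, a septin, by 0.82 (adjusted p = 0.00641).

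**Figure D5:**
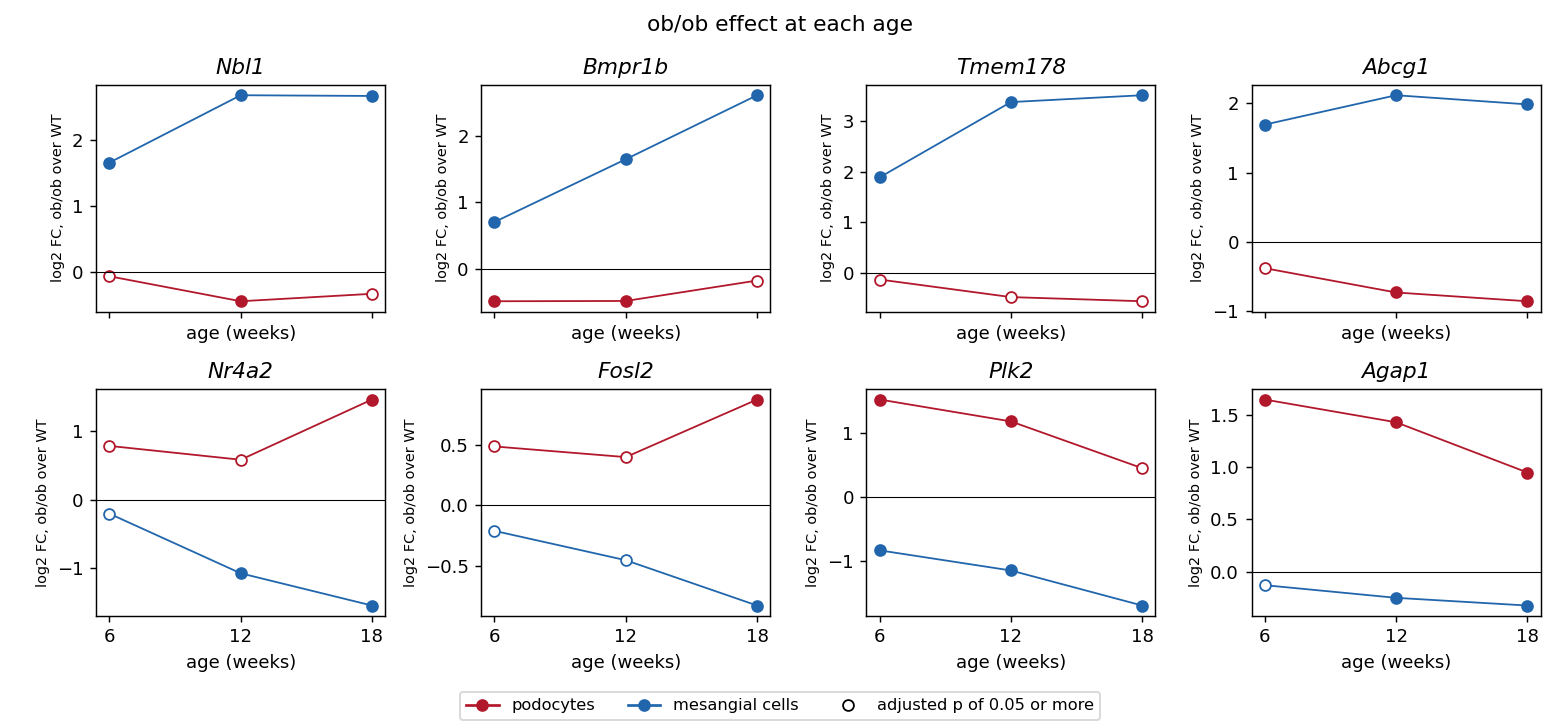
Log2 fold change of ob/ob over WT (y axis, a different scale in each panel) at 6, 12 and 18 weeks (x axis) in podocytes (red) and mesangial cells (blue) for 8 opposite genes, with open points for an adjusted p of 0.05 or more. The mesangial effect of Bmpr1b is 0.70, 1.65 and 2.61 at the 3 ages, and the Plk2 effect is 1.52, 1.18 and 0.45 in podocytes and -0.84, -1.15 and -1.70 in mesangial cells.

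The difference had the same sign in females and in males for 462 of the 463 genes, the exception being the Y-linked Ddx3y. Both estimates come from the libraries by which the genes were chosen. The test of females against males was called for 0 of them (edgeR, 29 at an unadjusted p under 0.05) and for 5 of all tested genes (0.0258%), namely Gja4, Psme2b, Gm33206, Gm37562 and Gm37945. For Abcg1 the difference was -2.68 in females and -2.46 in males, for Irs1 1.03 and 1.39, and for Sc5d 0.88 and 0.69.

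In gECs, whose libraries the rule did not use, some genes moved as in podocytes and others as in mesangial cells. Of the 211 genes that rose in podocytes, 38 rose and 46 fell in gECs, against 12.2% and 12.0% of all genes tested there. Of the 252 that fell in podocytes, 63 rose and 33 fell. In total 71 of the 463 were called in the podocyte direction and 109 in the mesangial direction. Npr1, Akap12 and Mgll rose in gECs (0.35, 0.44 and 0.38) as in mesangial cells, Npr3 fell (-0.92) as in podocytes, and Agap1, Nid2 and Sc5d were at -0.01, -0.01 and -0.04 and were not called.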

How the data were processed

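RNA from sorted podocytes and mesangial cells (92 libraries) and gECs (46 libraries) was analysed, and 6 libraries of a perfusion experiment were not used here. Per the processing notes of the submitters, reads were checked with FastQC 0.11.5 and quantified with Bowtie2 2.3.3.1 in RSEM 1.3.0 on mm10, and the annotation release is not given in the sources used here. The files deposited by the authors give expected counts per gene (estimated reads, not normalized) and TPM (scaled by the authors' RSEM run for length and to a common sum). The kit was a stranded one made for low input. Whether counting used strand is not stated.

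Expected counts were rounded, filtered with filterByExpr and scaled with TMM in edgeR 4.0.16 (R 4.3.3). The quasi-likelihood model had 12 groups of cell type, genotype and age, with sex within cell type. All tests were two-sided at an adjusted p of 0.05. The gECs had a model of their own. The test was checked on simulated counts. TPM served for levels, for the limit of 5 and, as log2(TPM + 1), for limma 3.58.1. DESeq2 1.42.0 and other settings were alternatives. Of 46517 entries 46005 were placed by GENCODE M21 (GRCm38).

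Groups came from the labels of genotype, age, sex and cell type. Labels do not say that libraries are separate mice, so p-values measure the spread between libraries. Total counts of 14.8 to 38.1 M limit the precision of genes near the TPM limit.

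The members and 26 gene lists were chosen with earlier results of these data known, and 3 further lists were added after their values were seen. The genes named were the 12 with the largest difference in each direction among opposite genes with 1 sign at all ages, opposite list members, up to 4 called members per list and the 6 largest differences in each direction whatever the signs. Others (among them Npr1, Npr3, Pde4b, Des and Sept6) were named after their values were seen. Some items, among them members of the cholesterol synthesis list, are not reported here singly but stay in its counts.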

Additional observations from a re-analysis of the deposited data

Results flagged for a closer look

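Library values of 24 genes were screened in each of 12 groups, 288 sets in all, for a library far from the others of its group, and 29 stood out, where chance gives about 1 in 20 groups. The highest libraries were, among sterol genes, Abcg1 in ob/ob podocytes at 12 weeks (13.9 TPM, next 9.46), Hmgcs1 in WT podocytes at 6 weeks (25.0) and WT mesangial cells at 12 weeks (46.4), and Msmo1 in ob/ob mesangial cells at 6 weeks (17.7) and WT mesangial cells at 12 weeks (27.0). For insulin and growth hormone genes they were Irs1 in ob/ob and WT mesangial cells at 12 weeks (38.6 and 67.2) and WT podocytes at 18 weeks (31.1), and Socs2 in WT podocytes at 12 weeks (22.0, next 11.1) and WT mesangial cells at 18 weeks (19.6). Nr4a2 stood out in ob/ob mesangial cells at 18 weeks (30.8), in WT podocytes at 18 weeks (12.4) and in WT mesangial cells at 6 weeks (242, next 140) and 12 weeks (566.5, next 233). The last of these libraries, male 1, also had the highest score on the first principal component of the residuals. Fosl2 reached 298 TPM in 1 library of ob/ob podocytes at 18 weeks (male 2, next 118), in which Nid2 was also highest (10.6) and Socs2 lowest (7.25). Plk2 reached 73.0 in ob/ob mesangial cells at 12 weeks. Sulf1 reached 25.2 and Npr3 144 in ob/ob mesangial cells at 18 weeks, Tmem178 13.9 in ob/ob mesangial cells at 6 weeks, Npr1 177 and Cd200 14.0 and Abat 113 in WT mesangial cells at 12 weeks, Hmox1 49.6 in WT mesangial cells at 18 weeks, Nid2 10.2 in WT podocytes at 12 weeks and Agap1 40.9 in WT podocytes at 18 weeks. The lowest libraries that stood out were Msmo1 in WT podocytes at 18 weeks (10.4) and Socs2 in ob/ob podocytes at 12 weeks (8.99).

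The difference of effects changed between 6 and 18 weeks by -1.28 for Nbl1, -1.60 for Bmpr1b, 0.55 for Itgb5, 1.98 for Ephb1 and 0.82 for Sept6 (adjusted p = 0.00939, 0.0192, 0.0318, 0.00124 and 0.00641, edgeR).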

How the results depend on the processing

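The count of 4429 genes with a called difference stayed within 1.5 times under other size factors, DESeq2, no filter, no sex term, deposited TPM, 138 libraries in 1 fit and the omission of mitochondrial genes. It was 1413, 2139 and 2127 at 6, 12 and 18 weeks alone, and 968 with at least a 2-fold difference. The 463 opposite genes became 98, 160 and 131 at each age alone (fewer libraries), 64 with at least a 2-fold difference and 272 at a mean TPM of 20. The share of positive differences was 52.7% in the main fit, 39.3% on deposited TPM (1770 against 2732) and 62.3% in 1 fit with the gECs (2705 against 1638), and the share of opposite genes with podocytes higher was 45.6%, 21.3% and 59.9%. Of the 463 genes, 460 kept all 3 calls with RLE size factors, 457 in DESeq2, 346 in the joint fit and 248 on deposited TPM, and under each of 12 settings all kept opposite signs except on deposited TPM (439) and at single ages (427 to 457). Without the 5 libraries taken to stand apart, an alternative chosen after seeing the data, 428 of the 463 kept all 3 calls. Of 1543 alternative values for 129 named genes, 1401 kept their direction and side of the threshold and 139 lost the call. At single ages 3 reversed, Tagln at 18 weeks (0.0556), Vegfa at 12 weeks (-0.0292) and Gm7666 at 12 weeks (0.11).

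With the number of the library's title as a replicate block across the cell types, 2462 differences were called positive and 2175 negative, and the difference stayed called for all 463 genes. The effects within each cell type were not refitted with the block. Same-numbered libraries correlated at 0.122 on average in their residuals (-0.0915 to 0.515 over 46 pairs, 24 of them over 0.1), against -0.0204 for other libraries of the same genotype, age and sex, and 32 of 46 podocyte libraries correlated best with their own number, among 3.87 candidates on average. Whether a number marks 1 mouse is not stated, so the libraries are taken to share only a number. No named opposite gene lost its call in either cell type with RLE size factors. Leaving out single replicates was not run, since groups hold 7 or 8 libraries.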
